A study of Mus musculus with 6 samples.

Results

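The 10 genes that carry the urea cycle and its ammonia supply were followed in the fasted livers of *Pak4* LKO and WT mice. They were chosen by name for their role, not by a threshold on measured values, and all 10 were found among the 45777 genes of the deposited table. Livers came from 8-week-old male C57BL/6 mice that had been fasted for 24 h, with 1 library from each of 3 WT and 3 LKO mice. Both groups carried *Pak4* flox/flox alleles. LKO mice also carried *Alb*-Cre, in which the albumin promoter drives Cre recombinase in hepatocytes, so that other liver cells keep their *Pak4*. All mice were fasted and no fed group enters the comparison, which therefore asks how the genotypes differ in fasting and not how fasting acts.

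The urea cycle turns ammonia, which is toxic, into urea, and runs in full only in the liver, mainly in the periportal hepatocytes that receive blood from the gut. *Cps1* joins ammonia and bicarbonate to carbamoyl phosphate in mitochondria, and works only with N-acetylglutamate, the product of *Nags*. *Otc* makes citrulline from carbamoyl phosphate and ornithine, which the carrier *Slc25a15* exchanges across the mitochondrial membrane. In the cytosol, *Ass1* joins citrulline with aspartate supplied through the carrier *Slc25a13* (citrin), *Asl* splits argininosuccinate into arginine and fumarate, and *Arg1* releases urea and returns ornithine. *Gls2*, the liver glutaminase, and *Glud1*, glutamate dehydrogenase, set ammonia free from glutamine and glutamate. In fasting, amino acids from muscle protein raise the flow of nitrogen to the liver.

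Promoter sequences show how unlike the start regions of these genes are. RefSeq windows of GRCm38.p6, the assembly of the mm10 build, run from 250 bases before a start site to 50 bases after it and were at hand for 6 of the 10 genes (7 windows). *Cps1*, *Asl*, *Arg1* and *Gls2* had no entry. The 4 windows of 300 bases are printed 5′ to 3′ on the strand of the gene, from 2 genes called higher in LKO livers below (*Ass1*, *Slc25a15*) and from 2 genes that were not called (*Otc*, *Slc25a13*). Capitals mark exact matches, on either strand, to the GC box GGGCGG, the CCAAT box CCAAT or TGACG, the core of the cyclic AMP response element, and TATAAA was searched too. Positions count from the start site of the window. If all windows have the same layout, that site is at the border of the gene coordinates given below for *Ass1* and *Slc25a15*. For *Otc* and *Slc25a13* it lies inside them. The windows are *Ass1*, chr2:31470020-31470319, plus strand; *Slc25a15*, chr8:22398572-22398871, minus strand; *Otc*, chrX:10252055-10252354, plus strand; and *Slc25a13*, chr6:6217124-6217423, minus strand.
Ass1: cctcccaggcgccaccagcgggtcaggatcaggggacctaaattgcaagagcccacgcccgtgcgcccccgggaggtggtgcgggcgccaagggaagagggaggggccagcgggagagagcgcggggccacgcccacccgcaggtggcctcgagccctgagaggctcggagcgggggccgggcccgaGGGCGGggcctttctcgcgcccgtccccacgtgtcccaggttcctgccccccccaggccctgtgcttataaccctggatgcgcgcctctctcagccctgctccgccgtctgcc
Slc25a15: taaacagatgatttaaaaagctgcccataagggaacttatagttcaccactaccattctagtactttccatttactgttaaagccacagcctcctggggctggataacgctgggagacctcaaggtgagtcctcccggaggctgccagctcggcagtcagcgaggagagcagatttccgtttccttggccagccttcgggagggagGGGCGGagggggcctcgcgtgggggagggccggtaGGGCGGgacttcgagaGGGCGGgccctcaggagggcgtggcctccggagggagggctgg
Otc: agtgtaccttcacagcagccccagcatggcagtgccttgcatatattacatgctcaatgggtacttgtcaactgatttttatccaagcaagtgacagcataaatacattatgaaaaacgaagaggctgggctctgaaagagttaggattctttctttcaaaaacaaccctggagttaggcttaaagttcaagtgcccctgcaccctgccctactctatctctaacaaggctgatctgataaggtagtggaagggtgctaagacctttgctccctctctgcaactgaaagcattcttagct
Slc25a13: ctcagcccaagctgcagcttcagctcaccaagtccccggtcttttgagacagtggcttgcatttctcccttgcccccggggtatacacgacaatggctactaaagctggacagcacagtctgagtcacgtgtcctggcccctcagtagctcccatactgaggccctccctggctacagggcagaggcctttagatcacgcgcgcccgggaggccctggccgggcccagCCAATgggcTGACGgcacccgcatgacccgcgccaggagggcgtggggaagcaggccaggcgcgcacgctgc
The *Otc* window held none of the 4 motifs, 1 CpG and 44.3% G or C, whereas the *Ass1* window held 27 CpG, 74.0% G or C and a GC box at −63. The *Slc25a15* window had GC boxes at −44, −9 and 8. A further window of *Slc25a15*, not printed, held 5 GC boxes, 51 CpG and 79.0% G or C. The *Slc25a13* window had a CCAAT box at −22 and TGACG at −13. Over all 32851 RefSeq windows the median G or C content was 52.7%, 35.7% held a GC box, 37.4% CCAAT, 20.8% TGACG and 13.6% TATAAA. Of the 7 windows of the urea cycle genes, 5 held a GC box, 1 CCAAT, 2 TGACG and 0 TATAAA. The *Glud1* window, of a gene that was not called, had the highest G or C content of the 7, 81.0%. A match of letters is a description of the window and not a site of binding.

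Libraries held 45934632 to 55205564 counts for WT livers, and for LKO livers 53936281 to 59576437, so that depth overlapped between the genotypes. Their makeup did not: 7SL RNA took 4.55 to 5.24% of the counts in WT livers and 11.2 to 15.8% in LKO livers, and protein-coding genes took 65.9 to 69.2% and 40.4 to 48.8% of the TPM (a level per length, as a part of all transcripts in a library). The factors of TMM, the scaling of edgeR, were 1.28 to 1.43 for WT livers but 0.639 to 0.816 for LKO livers. A value in TMM-scaled CPM (counts scaled to a common library size) and a value in TPM can therefore point in opposite directions for the same gene, and both are given. *Pak4*, the targeted gene, was at 3.63 ± 0.445 CPM in WT livers, against 2.21 ± 0.900 CPM in LKO livers (SD, n = 3), with LKO mouse 3 at 3.22 CPM inside the WT range of 3.21 to 4.10 CPM. Its log2 fold change was −0.71 (edgeR adjusted p = 0.101) and was lower in LKO under all scalings. In TPM, *Pak4* was at 2.31 to 2.59 in WT livers and 0.265 to 0.845 in LKO livers, without overlap, with LKO mouse 3 at 0.845. Of 8 hepatocyte markers, all detected in every mouse, 3 were higher with TMM (*Alb*, *Apoa1*, *Fgb*), 2 lower (*Ttr*, *Trf*) and 3 not called. Over all genes tested, 19.6% were called higher with TMM and 20.5% lower. These are bulk livers, in which fewer cells of a type and less RNA per cell cannot be told apart.

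Within WT livers the 10 genes spanned a wide range of TPM. *Cps1* was the most abundant, at 1346 ± 62.2 TPM, followed by *Arg1* at 1159 ± 98.6 (SD, n = 3), and both lay above every other member. *Ass1* (482 ± 147), *Otc* (382 ± 20.9), *Asl* (294 ± 52.8) and *Glud1* (251 ± 9.25) came next, where *Ass1* overlapped with *Otc*, and *Asl* with *Glud1*. *Slc25a13* (138 ± 7.78) lay above *Slc25a15* (107 ± 6.02), which overlapped with *Gls2* (81.9 ± 21.5). *Nags*, whose product acts as an allosteric activator and not as a bulk metabolite, was the lowest at 22.0 ± 2.12 TPM.

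The order was different in LKO livers. *Arg1* stood at the top with 1823 ± 12.3 TPM, but *Cps1* (1543 ± 479) overlapped with it. *Ass1* (380.4 ± 88.5) and *Asl* (305 ± 79.3) overlapped and both lay above *Otc* (162 ± 31.5), so that *Otc* moved from the fourth to the fifth place. *Glud1* (95.7 ± 11.2), *Slc25a15* (86.7 ± 46.1) and *Slc25a13* (50.9 ± 8.58) followed, and *Slc25a15* overlapped with each of the others. *Gls2* (37.6 ± 6.46) and *Nags* (9.50 ± 5.38) remained the lowest.

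**Figure D1:**
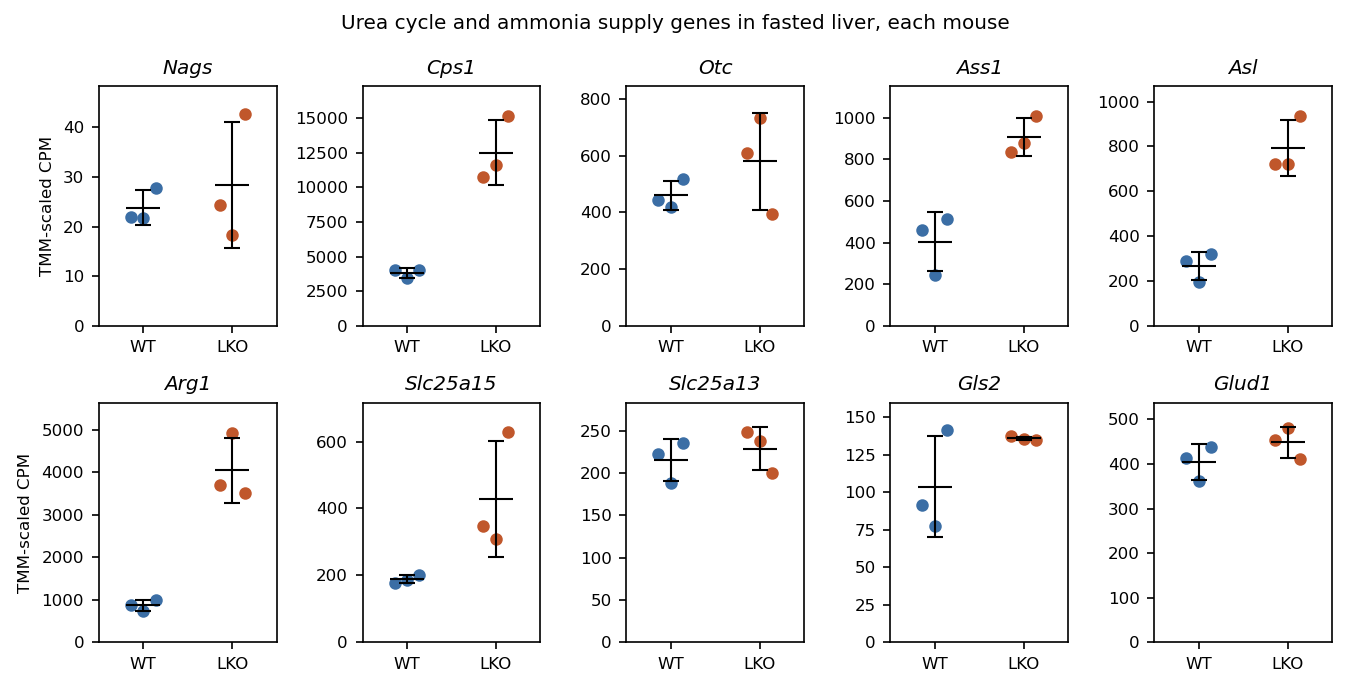
Level of each gene in each mouse in TMM-scaled CPM (vertical axis, from 0), with WT in blue and LKO in orange; horizontal bars are means and error bars SD (n = 3). *Cps1*, *Ass1*, *Asl*, *Arg1* and *Slc25a15* show no overlap between the genotypes on this scale, whereas the other 5 genes overlap.

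In TMM-scaled counts, 5 of the 10 genes passed the test and all of these were higher in LKO livers: *Cps1*, *Ass1*, *Asl*, *Arg1* and *Slc25a15*. None was lower, and *Nags*, *Otc*, *Slc25a13*, *Gls2* and *Glud1* did not pass. In log2(TPM + 1), *Arg1* was the only one of the 5 that passed, and *Ass1* and *Slc25a15* were negative. A gene was called at an adjusted p under 0.05 in the quasi-likelihood test of edgeR, with adjustment over all 18636 genes that passed a filter on low counts, as all 10 did. Across those genes 40.1% were called, 19.6% as higher and 20.5% as lower. The median log2 fold change of the 10 was 0.78, against −0.04 over all genes tested. TMM-scaled CPM did not overlap between the genotypes for 5 of the 10, against 54.0% of all genes tested.

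The entry step was led by *Cps1* (Entrez gene 227231, chromosome 1 from 67122426 to 67231267). WT mice 1, 2 and 3 had 4021, 3425 and 4001 CPM, and LKO mice 10733, 11619 and 15143 CPM. Every LKO value was more than the highest WT value, with a log2 fold change of 1.71, or 3.28-fold (standard error 0.281, edgeR adjusted p = 0.00208). In TPM the same livers overlapped, with 1414, 1293 and 1329.6 in WT livers and 1412, 1143 and 2073 in LKO livers. *Nags*, the source of the *Cps1* activator (217214, chromosome 11 from 102145513 to 102149528), had 21.9, 21.7 and 27.9 CPM in WT livers and 24.4, 18.3 and 42.6 CPM in LKO livers. LKO mice 2 and 3 lay on either side of the WT range, and the log2 fold change was 0.26 (standard error 0.290, edgeR adjusted p = 0.510). In TPM, *Nags* was lower in every LKO mouse, at 8.44, 4.73 and 15.3 against 20.2, 21.5 and 24.4 in WT.

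At the citrulline step the carrier passed the test and the enzyme did not. *Otc* (18416, chromosome X from 10252230 to 10321024) had 444, 419 and 517 CPM in WT livers and 610.2, 733 and 396 CPM in LKO livers. LKO mice 1 and 2 lay above the WT range and LKO mouse 3 below it, so that the groups overlapped (log2 fold change 0.33, standard error 0.243, edgeR adjusted p = 0.309). In TPM, *Otc* was at 368, 372 and 406 in WT livers and at 188, 171 and 127 in LKO livers, without overlap. *Slc25a15*, the ornithine carrier (18408, chromosome 8 from 22375550 to 22398621), had 179, 186 and 203 CPM in WT livers and 348, 309.6 and 629 CPM in LKO livers. LKO mouse 3 was far above the other LKO mice, but all 3 exceeded the WT mice. The log2 fold change was 1.18 (standard error 0.272, edgeR adjusted p = 0.00956), and 0.80 without LKO mouse 3 (adjusted p = 0.00631). In TPM, *Slc25a15* overlapped, with 100.4, 112 and 108 in WT livers and 73.2, 48.9 and 138 in LKO livers.

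Both argininosuccinate enzymes rose in TMM-scaled counts, but neither passed in log2(TPM + 1), where *Ass1* was negative. *Ass1* (11898, chromosome 2 from 31470270 to 31520670) had 459, 243 and 513 CPM in WT livers and 837, 877 and 1009 CPM in LKO livers, a log2 fold change of 1.16 (standard error 0.282, edgeR adjusted p = 0.0119). WT mouse 2 was the lowest of all 6 mice, and without it the log2 fold change was 0.87. *Asl* (109900, chromosome 5 from 130011258 to 130024381) had 288, 197 and 318 CPM in WT livers and 724, 720.3 and 935 CPM in LKO livers, a log2 fold change of 1.56 (standard error 0.232, edgeR adjusted p = 0.00135). WT mouse 2 was the lowest here too. In TPM both genes overlapped between the genotypes: *Ass1* was at 550.1, 313 and 582 in WT livers and 376, 294 and 471 in LKO livers, and *Asl* at 312, 234 and 335 in WT livers and 305, 226 and 384 in LKO livers. A part of the *Ass1* reads may be shared with *Gm5424*, a transcribed pseudogene whose transcript is 99.5% identical to *Ass1*. Its counts were 1.11 to 1.21% of those of *Ass1* in WT livers and 1.26 to 1.49% in LKO livers.

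*Slc25a13*, the carrier that exports aspartate for *Ass1* (50799, chromosome 6 from 6041218 to 6217304), did not pass the test. It had 223, 188 and 236 CPM in WT livers and 248, 238 and 199.96 CPM in LKO livers. The ranges overlapped (log2 fold change 0.09, standard error 0.166, edgeR adjusted p = 0.709). In TPM it was at 142, 129 and 142 in WT livers and at 59.9, 42.8 and 50.0 in LKO livers, the lower group without overlap.

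*Arg1*, the last step and the source of urea itself, had the largest log2 fold change of the 10 genes. WT mice 1, 2 and 3 had 875, 745 and 1005 CPM and LKO mice 3705, 4921 and 3513 CPM. The log2 fold change was 2.21, or 4.62-fold (standard error 0.251, edgeR adjusted p = 4.89e-04). *Arg1* (11846, chromosome 10 from 24915207 to 24927470) was also the only one of the 10 that was higher without overlap in TPM, at 1159, 1060.0 and 1257 in WT livers and 1836, 1823 and 1811 in LKO livers. *Gm40616*, a gene that overlaps it, held 0.350 to 0.701% as many counts as *Arg1*. *Arg2*, the mitochondrial arginase of other tissues, was low, with 0.188 to 0.287 CPM in WT livers and 1.05 to 2.62 CPM in LKO livers (log2 fold change 2.89, edgeR adjusted p = 0.00145). It was higher in LKO livers on every scale, but did not pass in log2(TPM + 1) (limma adjusted p = 0.0703), and *Arg1* had 1294 to 4664 times its TPM in each mouse.

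The genes that supply ammonia did not pass the test in TMM-scaled counts. *Gls2* (216456, chromosome 10 from 128194635 to 128210004) had 91.8, 77.6 and 142 CPM in WT livers and 137, 136 and 135 CPM in LKO livers. WT mouse 3 lay above the LKO mice and the other WT mice below, while the coefficient of variation was 0.829% among LKO mice and 32.5% among WT mice. The log2 fold change was 0.39 (standard error 0.223, edgeR adjusted p = 0.198), and without WT mouse 3 it was 0.67 and passed (adjusted p = 0.0348). *Spryd4*, which overlaps *Gls2*, held 11.8 to 25.7% as many counts, so some reads could belong to either gene. *Glud1* (14661, chromosome 14 from 34310727 to 34345033) had 412, 361 and 439 CPM in WT livers and 453, 480.0 and 411 CPM in LKO livers (log2 fold change 0.15, standard error 0.166, edgeR adjusted p = 0.504). In TPM both were lower in LKO livers without overlap: *Gls2* was at 66.2 to 106 in WT livers and 30.1 to 41.8 in LKO livers, and *Glud1* at 240.0 to 257 in WT livers and 83.2 to 105 in LKO livers.

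**Figure D2:**
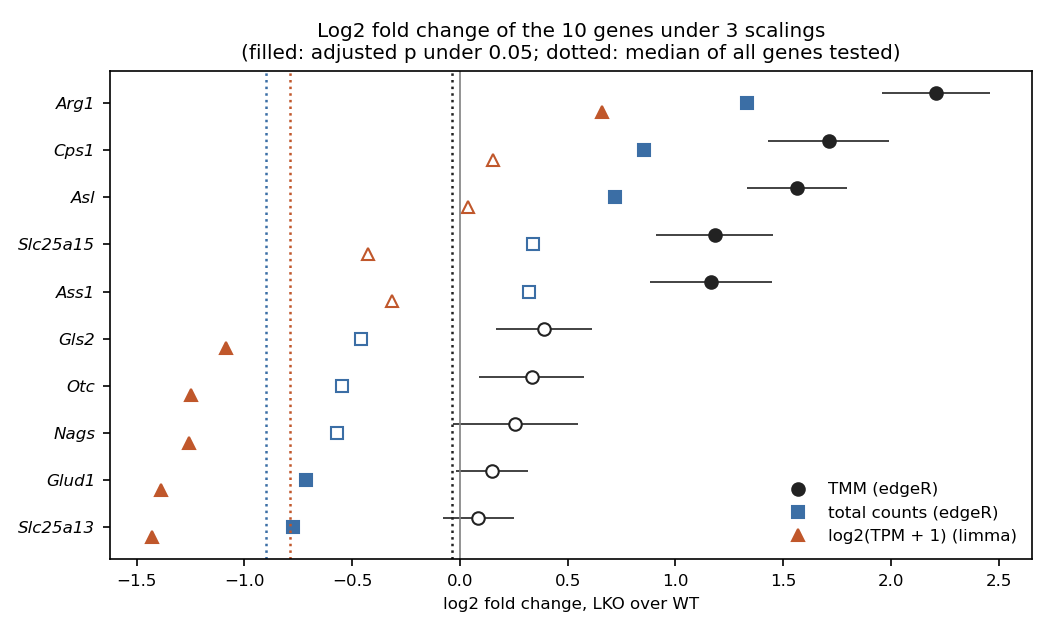
Log2 fold change (LKO over WT, horizontal axis) of the 10 genes under TMM and total-count scaling in edgeR and in log2(TPM + 1) in limma; filled marks passed the test, bars are standard errors of the TMM fit and dotted lines the median of all genes tested (−0.04, −0.90 and −0.79). *Arg1*, *Cps1* and *Asl* keep the top 3 places under each scaling, *Ass1* and *Slc25a15* turn negative in log2(TPM + 1), and *Arg1* is the only gene that is called higher under all 3. A scaling shifts all genes nearly alike, and TPM is close to a rescaling for these genes, so all 3 could hardly differ in this order.

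The direction of most of these genes depended on the scaling. With total counts in place of TMM, edgeR called 3 of the 10 higher (*Arg1*, log2 fold change 1.33; *Cps1*, 0.85; *Asl*, 0.72) and 2 lower (*Glud1*, −0.72; *Slc25a13*, −0.77). In log2(TPM + 1), with a pseudocount of 1 that understates changes of low genes, limma called *Arg1* alone higher (0.66) and 5 genes lower: *Gls2* (−1.09), *Otc* (−1.25), *Nags* (−1.26), *Glud1* (−1.39) and *Slc25a13* (−1.43). *Cps1* (0.15) and *Asl* (0.04) were then near 0, and *Ass1* (−0.31) and *Slc25a15* (−0.43) turned negative without passing. These scalings also shift the median of all genes, from −0.04 with TMM to −0.90 with total counts and −0.79 in log2(TPM + 1). Relative to that median, *Arg1*, *Cps1*, *Asl*, *Ass1* and *Slc25a15* stayed above the typical gene in all 22 fits. The other 5 were 0.13 to 0.44 above it with total counts and 0.30 to 0.64 below it in log2(TPM + 1). With the smaller pseudocount of log2(TPM + 0.1) they lay near it. Relative to the median, *Gls2* was then at 0.23, *Otc* at 0.08, *Nags* at −0.02, *Glud1* at −0.05 and *Slc25a13* at −0.11.

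The top of the order of the genes was the same in every fit. A library scaling shifts all genes nearly alike, so fits that differ only in scaling could hardly change this order. For these 10 genes the TPM fits come close to such a rescaling, because the length behind TPM was nearly the same in every library. The correction for gene length, the block and the left-out mice could change the order. In all 22 fits, alternatives and left-out mice included, *Arg1* had the highest log2 fold change of the 10, *Cps1* the second and *Asl* the third. *Ass1* and *Slc25a15* held the fourth and the fifth places, and *Slc25a13* the ninth or the tenth.

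Values within a library do not depend on its scaling, and show this unequal change mouse by mouse. *Arg1* made up 26.4, 27.6 and 27.7% of the summed TPM of the 10 genes in WT livers and 41.7, 47.2 and 34.8% in LKO livers. *Otc* made up 8.36, 9.68 and 8.93% in WT livers and 4.27, 4.41 and 2.44% in LKO livers. Neither gene overlapped between the genotypes. *Glud1* went from 5.90% ± 0.312 to 2.15% ± 0.239 and *Slc25a13* from 3.24% ± 0.112 to 1.14% ± 0.202, also without overlap (SD, n = 3). *Cps1* held 31.7% ± 2.25 in WT livers and 33.8% ± 5.33 in LKO livers, which overlapped (two-sided exact permutation test, p = 0.7). In all, 6 of the 10 shares did not overlap, with *Arg1* higher and *Nags*, *Otc*, *Slc25a13*, *Gls2* and *Glud1* lower. Each was at an exact permutation p = 0.1, the smallest that 3 against 3 mice allow. Shares were not computed for other sets of genes, and 54.0% of all genes tested did not overlap in TMM-scaled CPM.

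**Figure D3:**
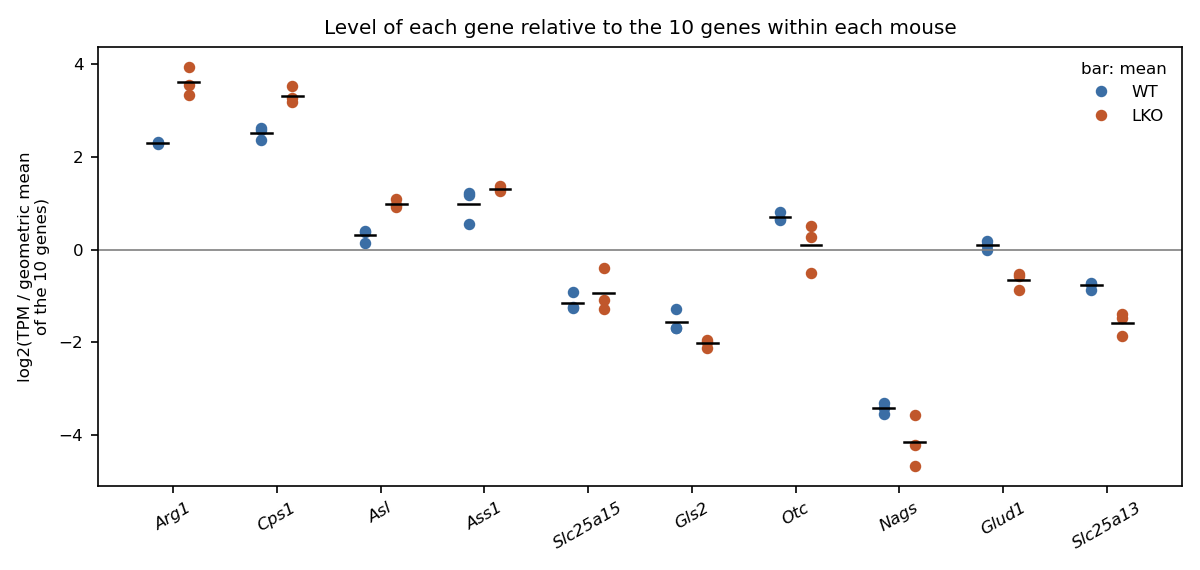
Log2 ratio of the TPM of each gene to the geometric mean of the 10 genes in the same mouse (vertical axis), WT in blue and LKO in orange, with bars at the means. *Arg1*, *Cps1*, *Asl* and *Ass1* are higher and *Gls2*, *Otc*, *Nags*, *Glud1* and *Slc25a13* lower in LKO livers without overlap, while *Slc25a15* overlaps.

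Against the geometric mean of the 10 genes, 9 did not overlap between the genotypes. No such count was made for other sets of genes, and in TMM-scaled CPM 54.0% of all genes tested did not overlap. *Arg1* was 1.31 higher on the log2 scale, *Cps1* 0.80, *Asl* 0.68 and *Ass1* 0.33, and *Slc25a15* overlapped (0.22). For *Ass1*, *Asl* and *Slc25a15* the sign was opposite to that of the share, in which *Arg1* and *Cps1* weigh most. *Slc25a13* fell by 0.80, *Glud1* fell by 0.75, *Nags* fell by 0.72, *Otc* fell by 0.61 and *Gls2* fell by 0.46 on the same scale. Since a rise of some genes lowers the rest in such a ratio, it shows unequal change and not which genes moved.

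Ratios of neighbouring steps, in TPM, put numbers on this. Apart from *Gls2* to *Glul*, they were chosen after their values had been seen and are given with no test. *Arg1* to *Otc* was 3.15, 2.85 and 3.10 in WT livers and 9.75, 10.7 and 14.3 in LKO livers, 3.77-fold higher. *Cps1* to *Otc*, successive steps of the cycle, was 3.28 to 3.85 in WT livers and 6.70 to 16.3 in LKO livers. *Cps1* to *Nags* was 54.6 to 70.0 in WT livers and 135 to 242 in LKO livers, and *Cps1* to *Glud1* was 5.18 to 5.54 and 13.5 to 20.9. *Slc25a15* to *Slc25a13*, the 2 carriers, was 0.705 to 0.873 in WT livers and 1.14 to 2.76 in LKO livers. Each of these ratios was without overlap between the genotypes, as were *Arg1* to *Ass1* (1.96-fold higher) and *Asl* to *Ass1* (1.27-fold higher). Among the 10 ratios looked at, *Slc25a13* to *Slc25a12* overlapped, at 15.5 to 17.9 in WT livers and 13.8 to 30.1 in LKO livers. *Arg1* to *Arg2* overlapped too, at 3259 to 4664 and 1294 to 3465. No share over other pairs of genes was computed. *Gls2* to *Glul*, ammonia release against its capture by glutamine synthetase, was 0.329, 0.467 and 0.496 in WT livers and 0.415, 0.404 and 0.415 in LKO livers. The LKO values lay within the WT range, with a log2 difference of −0.04 (exact permutation p = 1.0) that ran from −0.23 to 0.07 when 1 mouse was left out.

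Beyond the 10 genes, 38 other genes of nitrogen metabolism were read in 4 lists, and 18 were called, 12 higher and 6 lower (against 19.6% and 20.5% of all genes tested), with a median log2 fold change of 0.40. Without WT mouse 1, 6 were higher and 6 lower. Of 7 transaminases and malate or fumarate enzymes, which feed aspartate to *Ass1* and take up the fumarate of *Asl*, 3 were higher and 0 lower. These were the cytosolic enzymes *Got1* (2.44) and *Mdh1* (1.82), and *Fh1* (2.25), which acts in both cytosol and mitochondria. All were positive under every scaling. *Got1* did not pass in log2(TPM + 1) (limma adjusted p = 0.377), and neither *Got1* nor *Mdh1* in log2(TPM + 0.1) (0.321 and 0.190). *Got1* had 73.7 to 91.9 CPM in WT livers and 248, 255 and 872 CPM in LKO livers, with LKO mouse 3 far above the others (log2 fold change 1.57 without it). The mitochondrial partners of *Got1* and *Mdh1*, *Got2* (−0.55, edgeR adjusted p = 0.0723) and *Mdh2* (−0.28, adjusted p = 0.126), did not pass with TMM. *Mdh2* did not overlap in CPM, at 55.2 to 55.4 in WT livers and 42.8 to 50.4 in LKO livers. In TPM both were lower without overlap. *Got2* was at 95.2 to 153 in WT livers and 22.5 to 36.3 in LKO livers, and *Mdh2* at 79.9 to 90.4 and 18.3 to 29.9.

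Of 8 other enzymes of glutamine, ammonia and arginine, 3 were higher and 2 lower, against 19.6% and 20.5% of all genes tested. *Oat*, ornithine aminotransferase, rose in every LKO mouse, from 211 to 389 CPM in WT to 1201 to 1760 CPM in LKO livers (log2 fold change 2.20, edgeR adjusted p = 7.32e-04), and stayed called under every scaling. *Car5a*, the mitochondrial carbonic anhydrase that supplies bicarbonate to *Cps1*, fell from 11.5 to 16.8 CPM in WT to 4.13 to 6.996 CPM in LKO livers (−1.22, edgeR adjusted p = 0.00544). *Aldh18a1*, which makes the precursor of proline and ornithine, fell too (−1.26). Both were lower under every scaling. *Glul* was not called with TMM (0.44, edgeR adjusted p = 0.152).

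**Figure D4:**
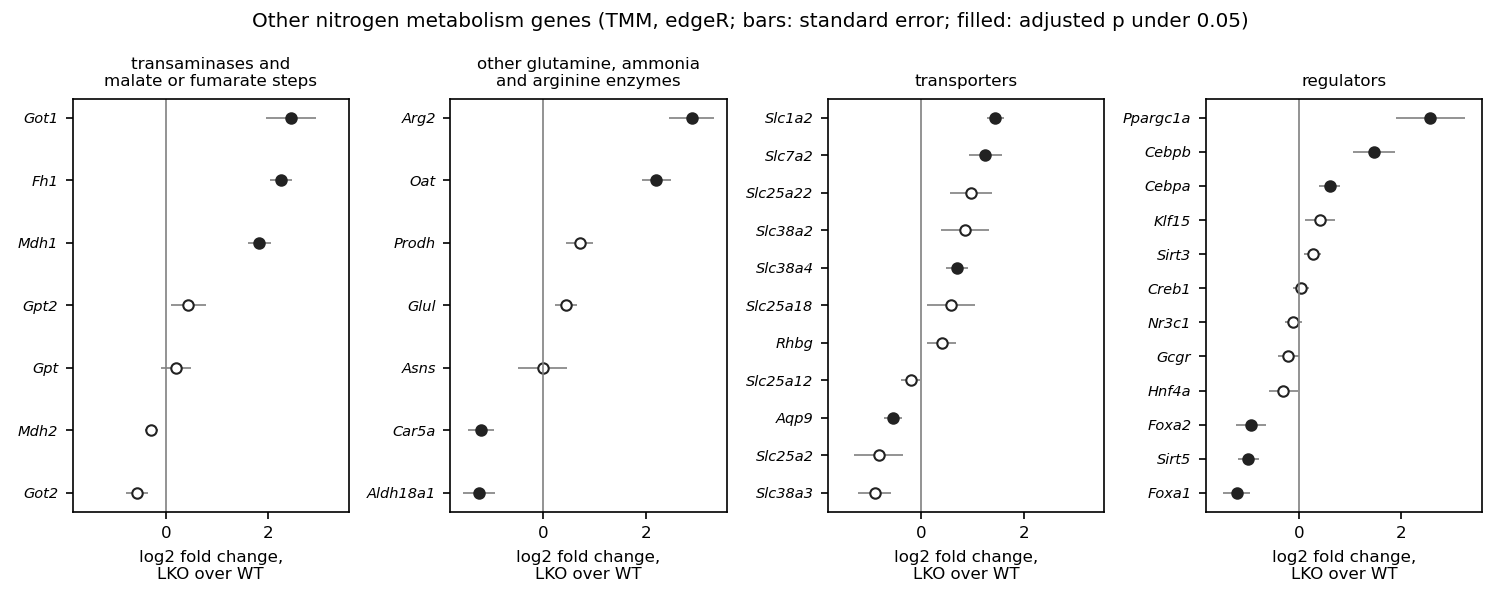
Log2 fold change (LKO over WT, TMM scaling, horizontal axis) with standard errors for 37 of the 38 other genes of nitrogen metabolism in 4 lists; filled marks passed the edgeR test. *Got1*, *Fh1*, *Mdh1*, *Oat*, *Arg2* and *Ppargc1a* lie near or above 2, and *Car5a*, *Aldh18a1* and *Foxa1* lie below −1.

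Of 11 transporters, 3 were higher and 1 lower, against 19.6% and 20.5% of all genes tested. *Slc1a2*, a glutamate transporter (1.45), *Slc7a2*, a carrier of cationic amino acids such as arginine (1.25), and *Slc38a4*, a carrier of neutral amino acids (0.69), were higher with TMM, but all 3 turned negative in log2(TPM + 1), and *Slc38a4* also with total counts. Without WT mouse 1 or WT mouse 2, neither *Slc7a2* (edgeR adjusted p = 0.0533 and 0.0534) nor *Slc38a4* (0.119 and 0.106) passed. *Slc38a4* did not pass without LKO mouse 2 or LKO mouse 3 either (0.0651 and 0.0728). *Aqp9*, a channel for glycerol and urea, was lower on every scale (−0.55, edgeR adjusted p = 0.0313), but did not pass when WT mouse 2, WT mouse 3, LKO mouse 1, LKO mouse 2 or LKO mouse 3 was left out (0.0512 to 0.124). *Slc25a12*, the close relative of *Slc25a13*, was not called with TMM (−0.20, edgeR adjusted p = 0.419), but was called lower with total counts (−1.06) and in log2(TPM + 1) (−1.45).

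Of 12 regulators, 3 were higher and 3 lower, against 19.6% and 20.5% of all genes tested. *Ppargc1a*, a coactivator of the fasting response, had the largest change (2.56, edgeR adjusted p = 0.0166), with 6.79 to 9.40 CPM in WT livers and 18.9, 18.0 and 109.8 CPM in LKO livers, so that its size rested on LKO mouse 3 (1.15 without it). It did not pass without WT mouse 1, WT mouse 2 or WT mouse 3 (edgeR adjusted p = 0.0521, 0.0554 and 0.0619). *Cebpb* (1.46) and *Cebpa* (0.60), which drive liver metabolic genes, were called with TMM, and *Cebpa* turned negative with total counts and in TPM. Neither *Ppargc1a* nor *Cebpb* passed with total counts (edgeR adjusted p = 0.0536 and 0.193) or in log2(TPM + 1) (limma adjusted p = 0.573 and 0.901). *Cebpb* did not pass without WT mouse 1, LKO mouse 2 or LKO mouse 3 (edgeR adjusted p = 0.0566 to 0.0761), nor *Cebpa* without WT mouse 1, WT mouse 2 or LKO mouse 1 (0.137 to 0.163). *Foxa1* (−1.21) and *Foxa2* (−0.94), factors of hepatocyte identity, and *Sirt5* (−0.99), the mitochondrial deacylase that acts on *Cps1* protein, were lower under every scaling. *Foxa2* did not pass without WT mouse 1, WT mouse 2, LKO mouse 2 or LKO mouse 3 (edgeR adjusted p = 0.0638 to 0.110). *Hnf4a*, *Nr3c1*, *Creb1*, *Klf15*, *Gcgr* and *Sirt3* were not called with TMM.

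Urea cycle genes are periportal, and the other markers of that zone did not move in 1 direction. Of 10 other periportal markers, 2 were higher with TMM and negative in log2(TPM + 1), *Sds* (1.21) and *Hal* (0.90), and 3 were lower under every scaling, *Cyp2f2* (−2.04), *Aldh1b1* (−1.70) and *Cdh1* (−1.03). Of 11 pericentral markers, 2 were higher (*Oat* and *Slc1a2*, both described above) and 2 lower under every scaling, *Cyp2c29* (−1.69) and *Cyp1a2* (−1.54). Over all genes tested, 19.6% were called higher with TMM and 20.5% lower. Summed TPM of the periportal list was 1683 to 2076 in WT livers and 560 to 1118 in LKO livers, and of the pericentral list 3517 to 4050 and 1637 to 1871. The summed TPM of the 10 urea cycle and ammonia supply genes overlapped, at 3842 to 4546 in WT livers and 3867 to 5211 in LKO livers.

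Markers of other liver cells were called too, beside 19.6% of all genes tested called higher and 20.5% called lower. With TMM, 4 of 8 Kupffer cell markers were higher and 1 lower, 3 of 6 endothelial and 2 of 6 stellate markers higher, 2 of 6 leukocyte markers higher, and 1 of 4 cholangiocyte markers tested lower. Summed Kupffer cell markers were 274 to 414 CPM in WT livers and 445 to 865 CPM in LKO livers, and summed hepatocyte markers 48766 to 52443 and 106413 to 130188 CPM. In TPM the sums were 214 to 350 and 150.1 to 225 for Kupffer cell markers, and 40390 to 44691 and 29304 to 41482 for hepatocyte markers, so that their direction depended on the scale as well. No marker was at 0 in all mice. The part of these markers in the values of the urea cycle genes was not tested.

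Among 12989 other genes above a mean of 1 CPM, those most like the mean profile of the 10 genes over the 6 mice were *Rab14* (Pearson r = 0.995), *Pgm3* (0.993), *Gm5424* (0.991), *Coro1b* (0.989) and *Trp53i11* (0.989). The 6 mice form 2 genotype groups and share their scaling, so this likeness is a description, and *Gm5424* may share reads with *Ass1*.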

How the data were processed

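The authors sequenced liver RNA of 3 WT and 3 LKO mice, 1 library each. Groups follow the genotype given in the labels. The methods name 0.5 μg of RNA and a total RNA kit with removal of rRNA, whereas the labels name 1 μg and a stranded mRNA kit. The submitters' processing notes list bcl2fastq 2.20.0, FastQC 0.11.7, HISAT2 2.1.0, Bowtie2 2.3.4.1 and StringTie 2.1.3b with the mm10 build, and whether strand was used in counting is not given in the sources used here. The authors deposited whole-number read counts from StringTie that were not normalized, along with FPKM and TPM, which the authors scaled by gene length and library. FPKM entered only the relative gene length and 1 alternative.

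The 10 members and all gene lists were chosen with earlier results of these data known. The filter of the study, which drops genes with more than 1 zero count, kept 18636 of 45777 genes. After TMM scaling, LKO was compared with WT in edgeR 4.0.16 (R 4.3.3) by its quasi-likelihood test, two-sided, with adjustment by Benjamini-Hochberg over all genes tested. The test of the paper, exactTest, was an alternative. Shares and ratios were compared by exact permutation, two-sided, whose smallest p is 0.1 for 3 against 3 mice. P-values of edgeR set the difference between the groups against the spread between mice, moderated over genes. Those of the permutation test rank it among relabelings of the mice. Errors are the SD over 3 mice or the standard error of the model. The common biological coefficient of variation was 0.254.

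Named genes were the 10 members, *Pak4*, the companions *Glul*, *Arg2*, *Car5a* and *Slc25a12*, up to 3 called genes in each direction from each of 6 lists (mean of 1 CPM or more), and the 5 genes most like the members. Other genes (*Got2*, *Mdh2*, *Gm40616*, *Spryd4* and the list genes given only by call) were named after their values were seen. The values of 1 further gene are not reported here, and it stays in the counts and in the adjustment. Promoters came from RefSeq windows matched by Entrez number, and coordinates from RefSeq of GRCm38.p6, also matched by Entrez number (45679 genes).

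Alternatives were exactTest, upper-quartile scaling, total counts, DESeq2 1.42.0, its size factors in edgeR, TMM on protein-coding genes, a correction for gene length (lowess, span 0.3), 3 other filters, the replicate number as a block with and without that correction, limma 3.58.1 on log2(TPM + 1) and log2(TPM + 0.1), and leaving out each mouse in turn. TPM rescaled to protein-coding genes and ratios to the geometric mean were chosen after seeing the data. Procedures were tested on simulated data.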

Additional observations from a re-analysis of the deposited data

How the results depend on the processing

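Scaling was the choice that mattered. The calls of all 10 members were the same with exactTest, DESeq2, DESeq2 size factors, upper-quartile scaling, TMM on protein-coding genes, the correction for gene length and 3 other filters. In the order total counts, log2(TPM + 1), log2(TPM + 0.1) and protein-coding log2(TPM + 1), the last chosen after seeing the data, members called higher were 3, 1, 1 and 3 against 5, and called lower 2, 5, 5 and 3 against 0. Genes called higher were 1167, 399, 430 and 620 against 3661 and lower 9575, 12519, 13421 and 8264 against 3815, so that 10.9, 3.09, 3.10 and 6.98% of the calls were higher, against 49.0%. All calls came to 12918 and 13851 in the 2 limma fits on all TPM, against 7476. Of the 38 other genes of nitrogen metabolism, 6, 3, 3 and 4 were called higher, 16, 24, 25 and 16 lower, and 28 in all with log2(TPM + 0.1). Of the zone markers, 2, 1, 1 and 1 were higher, 8, 14, 14 and 9 lower, and 15 in all in both fits on all TPM. *Pak4* was at −1.54, −1.19, −2.14 and −1.14, and passed in each. Only 5 members lay above the median gene in log2(TPM + 1), against 10. In log2(TPM + 0.1) and in protein-coding log2(TPM + 1), 7 did.

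In the same order, the log2 fold changes that turned negative were −0.57, −1.26, −1.36 and −0.74 for *Nags*, −0.55, −1.25, −1.25 and −0.66 for *Otc*, −0.77, −1.43, −1.45 and −0.85 for *Slc25a13*, −0.46, −1.09, −1.11 and −0.51 for *Gls2*, −0.72, −1.39, −1.39 and −0.80 for *Glud1*, −0.41, −1.06, −1.06 and −0.47 for *Glul*, −0.17, −0.85, −0.85 and −0.26 for *Slc38a4*, and −0.23, −0.92, −0.95 and −0.35 for *Cebpa*. With log2(TPM + 1) and log2(TPM + 0.1) they were −0.31 and −0.31 for *Ass1*, −0.43 and −0.43 for *Slc25a15*, −0.21 and −0.22 for *Slc1a2*, −0.28 and −0.29 for *Slc7a2*, −0.31 and −0.31 for *Sds*, and −0.64 and −0.65 for *Hal*, which was also at −0.057 with protein-coding TPM. The cause of the different makeup of the libraries was not tested. Against the geometric mean, *Ass1* (0.33), *Asl* (0.68) and *Slc25a15* (0.22) had a sign opposite to that of their shares. 

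Without 1 mouse each, the log2 fold change of *Nags* ran from −0.16 to 0.49, of *Slc25a13* from −0.034 to 0.17 and of *Pak4* from −1.08, without LKO mouse 3, where it passed, to −0.50. The other genes called higher among the 38 ran from 6 to 12. Members called higher stayed at 5, and reached 6 with *Gls2* without WT mouse 3. The labels give replicate numbers without saying that they pair mice. Deviations of same-numbered mice correlated at 0.04, −0.01 and −0.08, which cannot settle whether those mice share a litter or a batch. With the replicate block, 6431 genes were called and 5 members were higher. *Slc38a4*, *Aqp9*, *Cebpa* and *Foxa2* did not pass with the block. Depth was not varied, and its part in these values was not tested.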

Other observations

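LKO mouse 3 was set apart in several genes around the cycle. It had the highest TMM-scaled CPM of all 6 mice for *Nags*, *Cps1*, *Ass1*, *Asl*, *Slc25a15*, *Got1* and *Ppargc1a*, but the lowest for *Otc*, at 396 CPM against 419 or more in the others. Its *Pak4* level, 3.22 CPM, was the highest among the LKO mice, but in TPM it was below every WT mouse (0.845 against 2.31 or more). *Otc* and *Slc25a15* therefore ran in opposite directions within the LKO group: 733 and 309.6 CPM in LKO mouse 2 and 396 and 629 CPM in LKO mouse 3. Within the WT group, WT mouse 2 was the lowest for 9 of the 10 urea cycle and ammonia supply genes, the exception being *Slc25a15*. These are single mice, and the differences between them were not tested.

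The 10 genes together took 0.835 to 0.949% of all counts in WT livers and 1.28 to 1.74% in LKO livers, and 0.574 to 0.667% against 0.864 to 1.09% of the TPM of protein-coding genes, both without overlap. Of all TPM they took 0.384 to 0.455% and 0.387 to 0.521%, which overlapped.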
